A study of Mus musculus with 8 samples.

Results

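The ribosomal protein genes were examined in mouse sacral neural crest cells with and without a functional Sox10. Members were taken by symbol: every probe set paired with a single gene symbol that is Rpl, Rps, Mrpl or Mrps followed by a digit, or Rpsa, Rplp0, Rplp1 or Rplp2, without pseudogenes and without the S6 kinase genes, with the brightest probe set standing for each gene. This gave 65 genes of the 6855 tested, from 100 probe sets. Of these, 38 encode the cytosolic ribosome (26 of the large subunit and 12 of the small) and 27 the mitochondrial ribosome (18 large and 9 small). The 65 are a part of the ribosomal protein genes, since 97.8% of the genes tested lie on chromosomes 1 and 10 to 16. All 27 mitochondrial genes lie on these chromosomes, while 19 of the 38 cytosolic genes lie on others. The rule uses symbols alone, so no measured value chose a member. By letter it also takes Rps19bp1, whose product binds the ribosomal protein RPS19 and is not a subunit.

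Expression was measured on 8 Affymetrix Mouse Gene 1.0 ST arrays, 4 of homozygous Sox10 Dom mutant cultures (Dom/Dom) and 4 of wild-type cultures (WT), with replicates 1 to 4 in each genotype. The neural tube behind somite 24 was dissected at embryonic day 9.5 and kept in DMEM/F12 with 10% serum, and after 24 hours the explant was discarded and RNA was taken from the cells that had crawled out. All 8 cultures had the same stage, medium and time. Dom is a frameshift allele of Sox10 in every cell of the animal, and no label ties the replicates to separate embryos, so the p-values describe how far these samples scatter, which can be technical. The Dom transcript is still made, so its level does not check the labels: Sox10 stood at 10.50 log2 units in Dom/Dom and 11.69 in WT, a difference of -1.20 (limma adjusted p = 0.0168). Of the 8 measured markers of crest and early glia, 7 lay above the median of all genes. All 8 were lower on average in Dom/Dom. At a limma adjusted p under 0.05 there were 3, Sox10, Erbb3 and Cdh19, where 0.481% of all genes passed.

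Ribosomes translate messenger RNA into protein. Those of the cytosol are built in the nucleolus from ribosomal RNA and proteins that are needed in near equal numbers, and the messages of these proteins share a pyrimidine tract at their first bases through which growth signals such as mTOR control their translation. Mitochondria hold a separate ribosome, related to that of bacteria, whose proteins are all encoded in the nucleus and imported, and which makes a few subunits of the respiratory chain. Mutations in single cytosolic ribosomal protein genes give tissue-specific defects in mice and in people, with neural crest derivatives among the tissues affected.

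Some of these genes carry a run of pyrimidines at or just before the annotated start, or an ETS-type motif. The share that does is given for each class without a test. Promoters from 250 bases before to 50 after the annotated start were taken from RefSeq (GRCm38.p6), in which 53 of the 65 members were matched, 30 cytosolic and 23 mitochondrial. The windows below run from 40 bases before the start through the first 20 transcribed bases, on the gene's strand. Capitals mark the ETS-type motif CCGGAAG on either strand, and any run of at least 7 C or T bases that touches the stretch from 5 bases before to 5 after the start. Rps6 is shown as the brightest member, Rpl27a for its long run, and Rpl38 and Mrpl44 because results below turn on them. Rps7 is shown for a motif with no long run and Mrpl58 for its paired motifs.
Rps6 (chr4:86857348-86857407, minus strand): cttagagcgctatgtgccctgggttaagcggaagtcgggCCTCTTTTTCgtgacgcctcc
Rpl27a (chr7:109519155-109519214, plus strand): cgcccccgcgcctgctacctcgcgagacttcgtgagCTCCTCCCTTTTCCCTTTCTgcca
Rpl38 (chr11:114668540-114668599, plus strand): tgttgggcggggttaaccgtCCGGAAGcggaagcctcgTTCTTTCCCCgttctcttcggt
Rps7 (chr12:28635934-28635993, minus strand): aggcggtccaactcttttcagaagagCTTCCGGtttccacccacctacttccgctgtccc
Mrpl58 (chr11:115403712-115403771, plus strand): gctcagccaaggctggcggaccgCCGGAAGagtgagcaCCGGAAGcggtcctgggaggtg
Mrpl44 (chr1:79775978-79776037, plus strand): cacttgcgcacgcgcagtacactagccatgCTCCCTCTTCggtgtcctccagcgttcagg

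The run of C or T was 20 bases long at Rpl27a and 10 at Rps6, at Rpl38 and at Mrpl44. At Mrpl44 it ended before the annotated start, so it is not part of the message as annotated. Such a run was found at 28.1% of the 32 cytosolic promoters, 16.7% of the 24 mitochondrial ones and 14.1% of all 32851 promoters in the table. These shares include runs that end before the start, so they are not shares of messages that begin with a tract. CCGGAAG lay in 40.6% of the cytosolic and 33.3% of the mitochondrial promoters, against 8.9% of all. The YY1-type motif AAGATGGCG, on either strand, was in 16.7% of the mitochondrial promoters (4 of 24), 0 of 32 cytosolic ones and 1.4% of all. TATAAA, the letters of a TATA box, lay in 12.5%, 4.2% and 13.6%. These are matches of letters in a fixed window, with overlaps between motifs not removed, and the factors that bind them were not measured here.

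Both classes were bright on the arrays, the cytosolic class most of all. On the deposited log2 scale the median cytosolic gene stood at 13.11 and the median mitochondrial gene at 10.61, where the median of all genes was 9.28. Above the 90th percentile of all genes lay 27 of 38 cytosolic and 0 of 27 mitochondrial genes, and above the median of all genes 36 of 38 and 24 of 27. By subunit the medians were 13.11 (cytosolic large), 12.94 (cytosolic small), 10.68 (mitochondrial large) and 9.89 (mitochondrial small). The brightness of a probe set also depends on its probes, so these levels order signals and not numbers of transcripts.

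**Figure D1:**
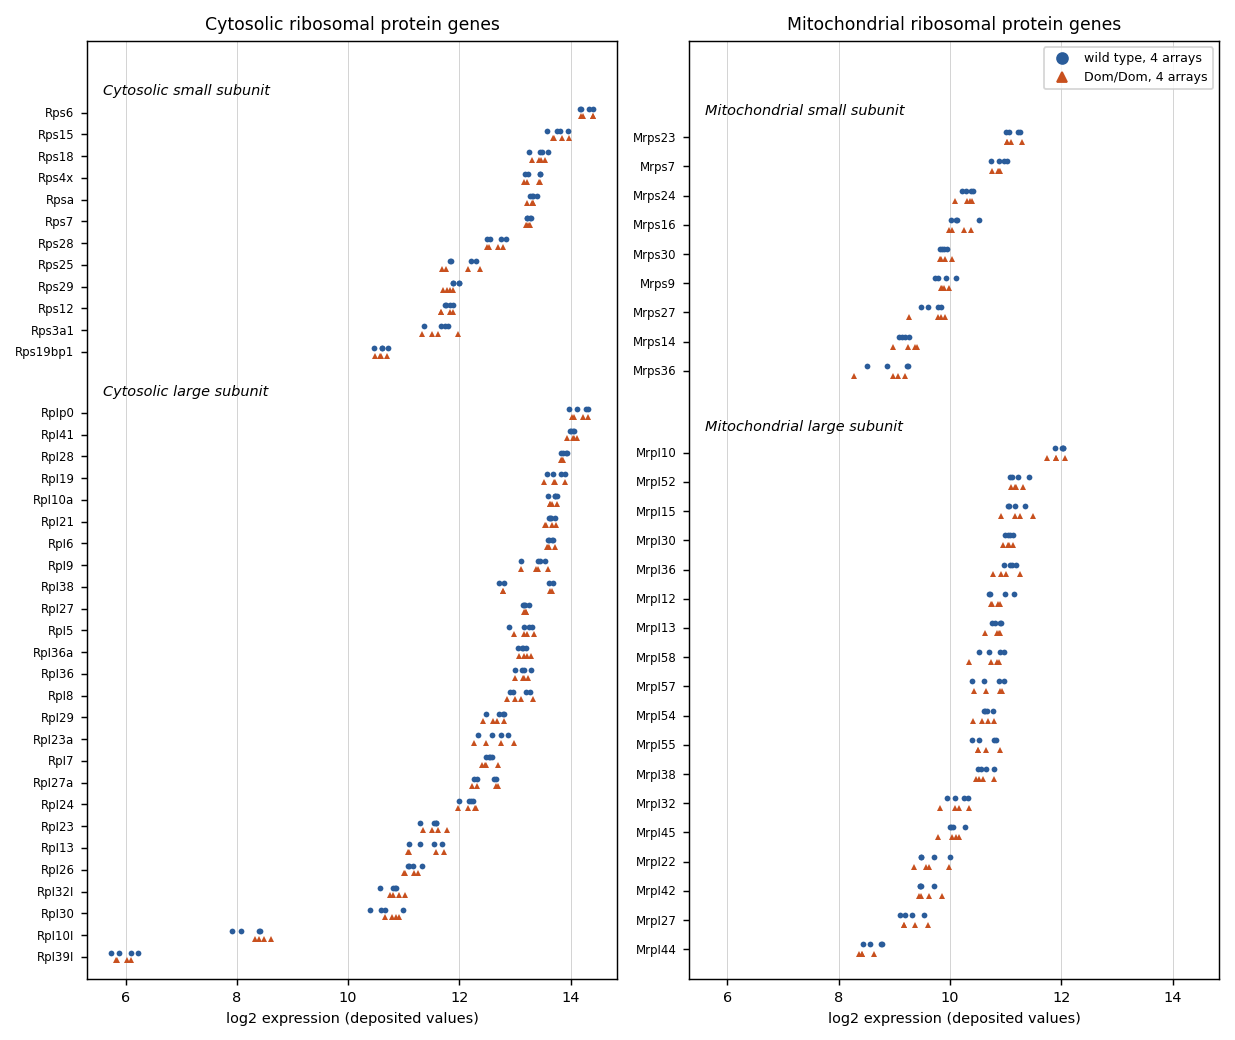
Deposited log2 expression (horizontal axis) of the 38 cytosolic (left) and 27 mitochondrial (right) ribosomal protein genes, by subunit, with 1 point per array (blue circles, 4 WT arrays; orange triangles, 4 Dom/Dom arrays). Cytosolic genes run from 5.97 (Rpl39l) to 14.29 (Rps6) on average over the 8 arrays and mitochondrial genes from 8.54 (Mrpl44) to 11.95 (Mrpl10), and the points of the genotypes overlap for each gene.

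Among cytosolic small subunit genes, Rps6 (probe set 10424823), the subunit protein that S6 kinases phosphorylate, was the brightest, at 14.22, 14.19, 14.41 and 14.40 in Dom/Dom replicates 1 to 4 and 14.16, 14.18, 14.33 and 14.40 in WT. Replicates 3 and 4 were the high arrays in both genotypes, and the genotypes overlapped. Rps15 and Rps18, both of the subunit's head, followed at 13.78 and 13.44 on average. The dimmest small subunit genes were Rps12 (11.79), Rps3a1 (11.63) and Rps19bp1 (10.59). Of the large subunit, Rplp0, the base of the stalk that recruits translation factors, averaged 14.16, Rpl41, which encodes a very short basic protein, 14.03, and Rpl28 13.86.

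The dim end of the cytosolic class held paralogues, of which Rpl39l and Rpl10l are known from the male germ line. Rpl39l (probe set 10433480, chromosome 16) lay between 5.74 and 6.23 on the 8 arrays, at percentile 3.78 of all genes, and was the dimmest member. Rpl10l, which takes the place of the X-linked Rpl10 during meiosis, averaged 8.33, at percentile 35.2, and the Rpl32-like gene Rpl32l 10.83. The parent genes Rpl10, Rpl32 and Rpl39 have no probe set with a single symbol in the table used here and were not analysed.

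In the mitochondrial class, Mrpl10 (probe set 10380732), a protein of the stalk base, was the brightest, at 11.74, 11.90, 11.90 and 12.07 in Dom/Dom and 12.02, 11.88, 12.02 and 12.03 in WT. The genotypes overlapped, with the lowest value in Dom/Dom replicate 1. Mrpl52 (11.20) and Mrpl15 (11.18) came next in the large subunit, and Mrps23 (11.13) and Mrps7 (10.88) were the brightest of the small. At the dim end stood Mrpl27 (9.31), Mrps14 (9.21) and Mrps36 (8.92). The product of Mrps36 is now known as a part of the 2-oxoglutarate dehydrogenase complex. The dimmest was Mrpl44 (8.54), an RNase III-like protein of the large subunit.

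Between the genotypes, no ribosomal protein gene passed the threshold. With limma over all genes, 0 of 38 cytosolic and 0 of 27 mitochondrial genes differed between Dom/Dom and WT at an adjusted p of 0.05, where 33 of 6855 genes did (0.481%). With the replicate number as a block the counts were again 0 and 0, against 103 genes (1.5%). At an unadjusted p under 0.05 there were 0 members, where 6.11% of all genes passed, and with the block 2 members, where 13.9% passed. In 0 of the 65 genes were the genotype groups free of overlap, against 3.78% of all genes. The lowest adjusted p of a member was 0.892 (Rpl10l), and 0.283 (Rps29) with the block.

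The differences were small as well as uncalled. The median difference, Dom/Dom minus WT, was -0.01 log2 over the cytosolic genes and -0.03 over the mitochondrial genes, beside -0.00094 over all genes. A difference under 0.1 in size was found for 34 of 38 cytosolic and 26 of 27 mitochondrial genes, against 70.5% of all genes. The 95% interval lay within 1.5-fold either way for 64 of the 65, all but Rpl38, and for 93.3% of all genes, and with the block for 65 of 65. Of the cytosolic genes 12 and of the mitochondrial genes 9 lay above 0, beside 49.6% of all genes. Centring each array on its median adds 0.04 to the difference of every gene, and 28 cytosolic, 16 mitochondrial and 65.7% of all genes then lay above 0, so the signs of differences this small depend on the scaling.

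**Figure D2:**
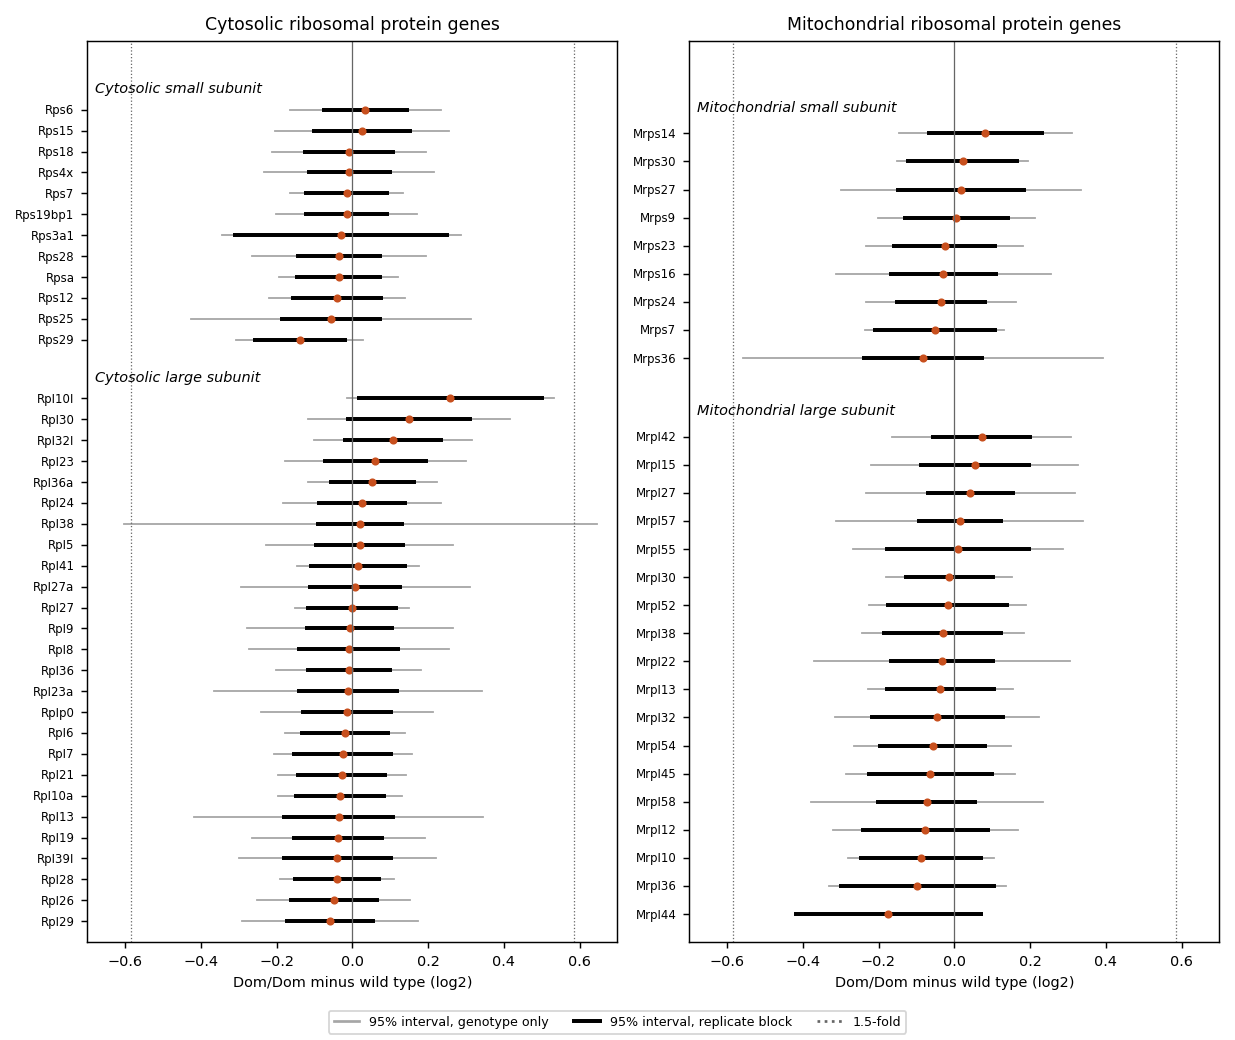
Difference between the genotypes (Dom/Dom minus WT, log2, horizontal axis) of each ribosomal protein gene, with 95% intervals from limma without the replicate number (grey) and with it as a block (black); dotted lines mark 1.5-fold. Without the block each interval holds 0, with it those of Rps29 and Rpl10l do not, and the grey interval of Rpl38, from -0.60 to 0.64, is the single interval that crosses 1.5-fold.

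The largest cytosolic difference was that of Rpl10l (probe set 10400605, chromosome 12). It read 8.40, 8.48, 8.62 and 8.32 in Dom/Dom replicates 1 to 4 and 8.07, 7.92, 8.40 and 8.41 in WT. Dom/Dom was higher in replicates 1 to 3 and lower in replicate 4, and the groups overlapped. The difference was 0.26 (95% interval -0.01 to 0.53; limma adjusted p = 0.892, and 0.327 with the block). Rpl30 differed by 0.15 (-0.12 to 0.42) and Rpl32l by 0.11 (-0.10 to 0.32), and neither passed.

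Rps29 (probe set 10400635, chromosome 12), a zinc-binding protein of the small subunit, was the cytosolic gene with the lowest difference. It read 11.78, 11.82, 11.88 and 11.70 in Dom/Dom and 11.99, 11.88, 12.00 and 11.88 in WT. Dom/Dom was the lower array in 4 of 4 replicate numbers, the single member of which this holds, although the highest Dom/Dom value stood just above the lowest WT values. The difference was -0.14 (-0.31 to 0.03; limma adjusted p = 1.00, and 0.283 with the block, where the interval was -0.26 to -0.02). Among all genes 10.7% were lower in each of the 4 pairs and 10.4% higher. Rpl36a, Rpl32l and Rps6 were the members higher in each, with differences of 0.05, 0.11 and 0.03. Further cytosolic genes at the low end were Rpl29 (-0.06), Rps25 (-0.06), Rpl26 (-0.05), Rps12 (-0.04) and Rpl28 (-0.04).

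Of the mitochondrial genes, Mrpl44 (probe set 10347774, chromosome 1) differed most. It read 8.42, 8.63, 8.41 and 8.36 in Dom/Dom and 8.56, 8.43, 8.76 and 8.77 in WT. Dom/Dom was lower in replicates 1, 3 and 4 and higher in replicate 2, and the groups overlapped. The difference was -0.17 (-0.40 to 0.05; limma adjusted p = 1.00, and 0.515 with the block). Fitted on replicates 3 and 4 alone, where the pairs differed by -0.35 and -0.41, it was the single member past the threshold (adjusted p = 0.0387), in a fit that called 5.13% of all genes. Its adjusted p ran from 0.0387 to 1.00 over the alternative fits.

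Taken by subunit, the other mitochondrial genes at the ends were Mrpl36 (-0.10), Mrpl10 (-0.09), Mrpl42 (0.07), Mrpl15 (0.05) and Mrpl27 (0.04) of the large subunit. Those of the small subunit were Mrps36 (-0.08), Mrps7 (-0.05), Mrps24 (-0.04), Mrps14 (0.08), Mrps30 (0.02) and Mrps27 (0.02). Each of them missed the threshold with and without the block. Averaged over its genes, the cytosolic class stood at 12.37, 12.39, 12.58 and 12.49 in Dom/Dom and 12.40, 12.37, 12.54 and 12.51 in WT. The mitochondrial class stood at 10.17, 10.41, 10.32 and 10.34 in Dom/Dom and 10.32, 10.37, 10.30 and 10.36 in WT. The distance between the classes was 2.14 ± 0.12 (SD, n = 4) in Dom/Dom and 2.12 ± 0.10 in WT, and by replicate number Dom/Dom minus WT was 0.12, -0.03, 0.02 and -0.01. In a culture of mixed cells, fewer cells of a type and less RNA per cell cannot be told apart.

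The mitochondrial genes stood apart in a single pair. In replicate 1, 22 of 27 were lower in Dom/Dom, with a median of -0.19, while 53.2% of all genes were lower, with a median of -0.01. The medians of the other pairs were 0.03, 0.03 and -0.01. In replicate 1 the largest of these differences were those of Mrpl36 (-0.30), Mrpl12 (-0.29), which forms the stalk with Mrpl10, Mrpl10 itself (-0.29) and Mrpl55 (-0.28), and the 5 genes above 0 were Mrpl42 (0.15), Mrpl27 (0.06), Mrpl57 (0.04), Mrps23 (0.02) and Mrpl30 (0.00060). The cytosolic median in replicate 1 was -0.03, with 23 of 38 below 0. These genes were picked out after their values were seen.

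Some markers of other cells also took other values in that pair, and some did not. The 5 measured neuron markers had a median difference of 0.38 in replicate 1 and of -0.63, -0.71 and -0.64 in replicates 2 to 4, with mean levels from 10.23 to 10.87 in Dom/Dom and from 10.64 to 11.28 in WT. The 6 measured mesoderm markers had a median of -0.10 in replicate 1 and of 0.37, 0.28 and 0.32 in the others, with mean levels from 8.54 to 9.10 in Dom/Dom and from 8.30 to 8.73 in WT. The 6 measured epithelial markers had medians of -0.17, -0.07, -0.26 and -0.29 in replicates 1 to 4, with mean levels from 9.58 to 9.88 in Dom/Dom and from 9.72 to 10.06 in WT. The embryonic globin gene Hba-x differed by -1.49, 0.39, -0.75 and -0.93, and Pecam1, the endothelial marker measured, by 0.04, 0.04, -0.04 and -0.17. The list medians of replicate 1 thus differed in sign from the others for the neuron and mesoderm markers. The epithelial median was below 0 in each replicate, and Hba-x was below 0 in replicates 1, 3 and 4 and above 0 in replicate 2. Not every marker turned. In replicate 1, 4 of 5 neuron markers and 3 of 6 mesoderm markers were above 0. In replicates 2 to 4 the neuron markers were all below 0 and the mesoderm markers all above. The part of these cells in the mitochondrial values of replicate 1 was not tested.

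**Figure D3:**
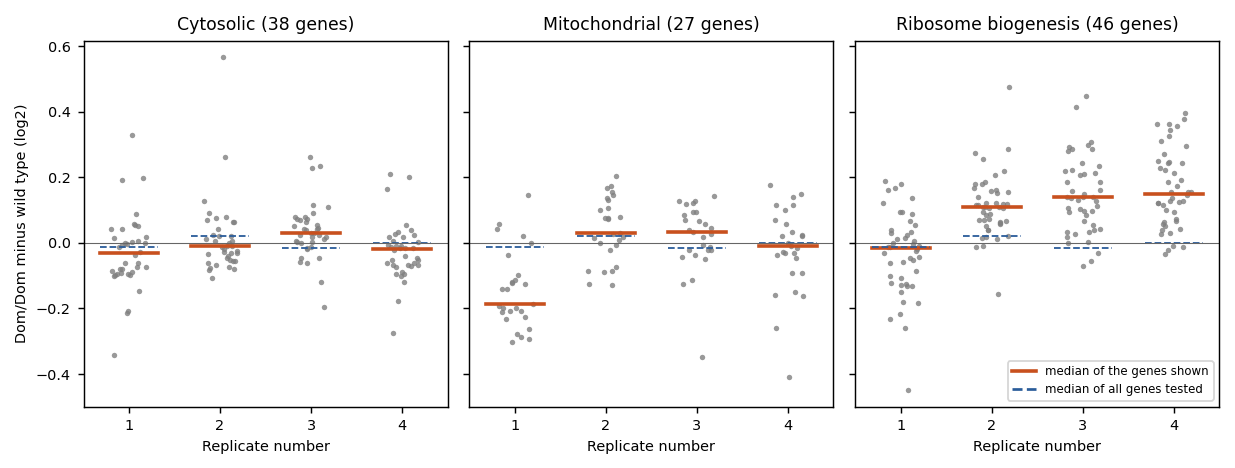
Dom/Dom minus WT (log2, vertical axis) within each replicate number (horizontal axis), with 1 grey point per gene, for the 38 cytosolic genes, the 27 mitochondrial genes and 46 genes of ribosome assembly. Orange bars are the medians of the genes shown and dashed blue lines the medians of all genes tested. The mitochondrial median of replicate 1 lies at -0.19, and the assembly genes lie mostly above 0 in replicates 2 to 4.

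Most ribosomal protein genes lay further apart between replicate numbers than between genotypes. Taking the mean of replicates 3 and 4 minus that of replicates 1 and 2 over both genotypes, 31 of 38 cytosolic genes were higher in replicates 3 and 4 (median 0.14), against 13 of 27 mitochondrial genes (median -0.01) and 40.9% of all genes (median -0.04). This shift was larger in size than the genotype difference for 32 of 38 cytosolic and 23 of 27 mitochondrial genes, and for 68.2% of all genes. No label says what separates these replicates, so no test was made, and the genes named for this shift were picked out after their values were seen.

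Rpl38 (probe set 10382369, chromosome 11), the large subunit gene mutated in the Tail short mouse, shifted most. It read 12.79, 12.78, 13.64 and 13.67 in Dom/Dom replicates 1 to 4 and 12.80, 12.70, 13.62 and 13.68 in WT. Replicates 3 and 4 were high and replicates 1 and 2 low in both genotypes, with no value between 12.80 and 13.62. The shift was 0.88 log2, or 1.84-fold, and 15 of 6855 genes, Rpl38 among them, were higher by at least as much (0.22%). The genotypes meanwhile differed by 0.02 (-0.60 to 0.64, and -0.09 to 0.13 with the block). Rpl13 (0.49), Rps25 (0.47), Rpl23a (0.41), Mrps36 (0.53) and Mrpl57 (0.40) were also higher in replicates 3 and 4, and Mrpl22 (-0.36), Mrpl27 (-0.30) and Rpl8 (-0.29) lower.

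**Figure D4:**
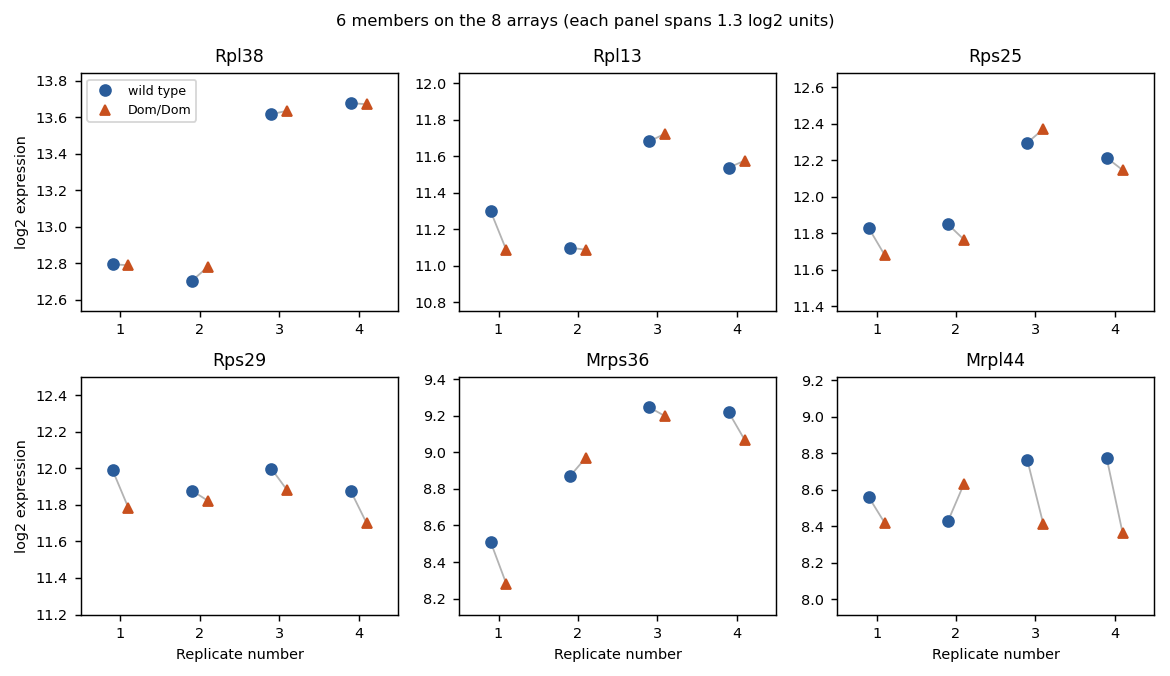
Log2 expression (vertical axis, each panel spanning the same range) of 6 ribosomal protein genes on the 8 arrays, by replicate number (horizontal axis), with WT as blue circles, Dom/Dom as orange triangles and a line joining arrays of 1 number. Rpl38 lies near 12.8 in replicates 1 and 2 and near 13.6 in replicates 3 and 4 in both genotypes, while Rps29 is lower in Dom/Dom at each number.

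Most marker lists of the cells such cultures can hold were also higher in replicates 3 and 4. This held for 6 of 8 crest and early glial markers (median shift 0.28), 4 of 5 neuron markers (0.22), 6 of 6 mesoderm markers (0.26), the endothelial marker Pecam1 (0.22) and the erythroid marker Hba-x (1.38), and for 2 of 6 epithelial markers (-0.04). Mean levels ran from 11.03 to 11.28 in Dom/Dom and from 12.11 to 12.66 in WT for the crest and glial list, and levels of Hba-x from 10.74 to 12.77 and from 11.67 to 13.52. The part of these cells in the shift was not tested. The shift also went with the kind of probe set. For 22 of the 38 cytosolic genes the probe set used had identifier neighbours that lie on another chromosome than the gene, so it may sit on a copy of the gene, whereas all 27 mitochondrial probe sets and 96.7% of all probe sets had neighbours on the gene's own chromosome. The shift was above 0 in 22 of these 22 cytosolic genes (median 0.21) and in 9 of the other 16 (median 0.02), Rpl38 among them. The 22 were also brighter, with a median level of 13.2 against 11.8 for the 16. Of the 22, 20 lay above the 90th percentile of all genes, and of the 16, 7 did. The part of the level in this contrast was not tested. Signals of a gene and of its near-identical copies cannot be told apart here.

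The genotype differences varied little between the probe sets of a gene. Of the cytosolic genes, 16 had several probe sets, 51 in all, and each mitochondrial gene had 1. The differences of the 51 lay between -0.10 and 0.06, and within a gene they spanned 0.02 in the median and at most 0.07 (Rpl23a, 10 probe sets, of which 8 had distinct values). Levels spanned far more: those of Rpl27 ran from 11.06 to 13.18 over 3 probe sets, and those of Rpsa, the laminin receptor protein of the small subunit, from 11.40 to 13.31 over 2. With the 19 cytosolic genes that have a probe set at the gene's own chromosome, the median difference was -0.01 and 0 passed.

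**Figure D5:**
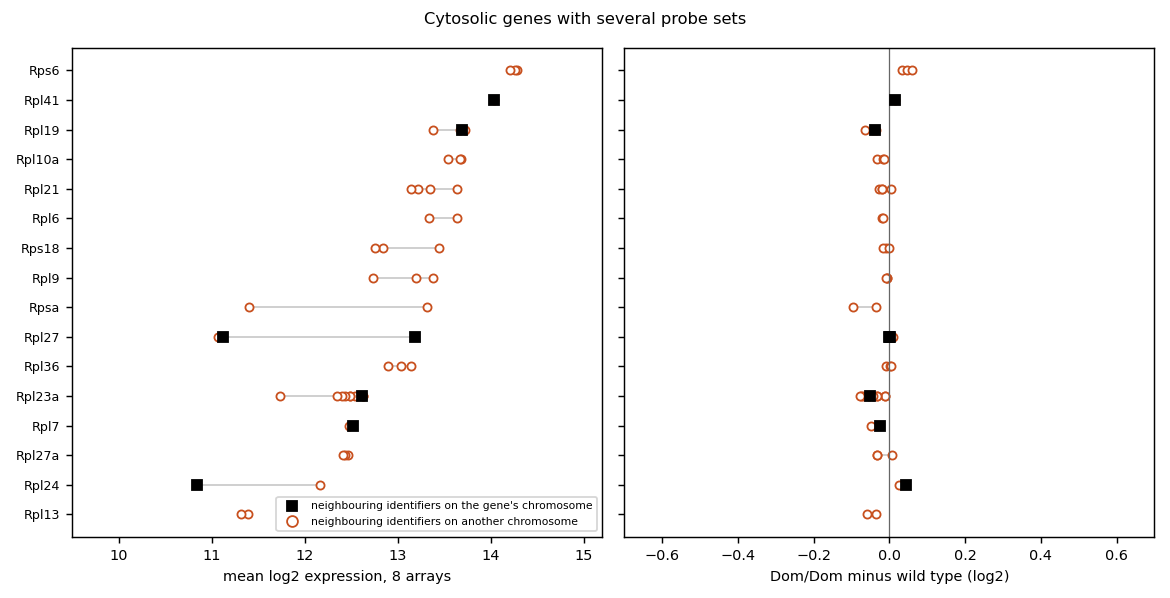
Mean log2 expression over the 8 arrays (left) and Dom/Dom minus WT in log2 (right) of each probe set of the 16 cytosolic genes with several. Black squares have identifier neighbours on the gene's chromosome and open orange circles on another. The levels of a gene spread by up to 2.12 log2 (Rpl27), and the differences by at most 0.07.

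Genes that build the cytosolic ribosome were nearly all above 0, none of them past the threshold. Of 46 measured genes of ribosomal RNA synthesis and nucleolar assembly, 44 were above 0, where 3399 of all 6855 genes were, and the median difference was 0.10. With limma 0 passed, without or with the block, where 0.481% and 1.5% of all genes did. Fitted on replicates 3 and 4 alone, 1 of the 46 passed, in a fit that called 5.13% of all genes. An unadjusted p under 0.05 was found for 2 of them, Brix1 and Nol12 (4.3%), where 6.11% of all genes had one. With the block it was found for 11 (23.9%), where 13.9% of all genes had one. Taf1d, a subunit of the factor that starts ribosomal RNA synthesis, differed by 0.23 (-0.0035 to 0.46; adjusted p = 0.826) and Brix1, an assembly factor of the large subunit, by 0.20 (0.01 to 0.39; adjusted p = 0.743). Taf1d lies on chromosome 9, but the identifier of its probe set falls between those of Ubtf and Nol11, both on chromosome 11. It may thus sit on a copy of the gene. In replicate 1, 28 of 46 were below 0 with a median of -0.02, near all genes (53.2% below 0, median -0.01). In replicates 2 to 4, 3, 4 and 4 were below 0, with medians of 0.11, 0.14 and 0.15. Of all genes, 43.4%, 53.7% and 49.8% were below 0 in those replicates. The number above 0 was 44 after quantile normalization and 45 after centring, and it lay between 36 (without WT replicate 1) and 43 when each array was left out in turn. The median was 0.05 without Dom/Dom replicate 4 and 0.18 without Dom/Dom replicate 1. Beside these genes, the 6 mesoderm markers were all above 0, with the medians by replicate given above, and their part in the assembly values was not tested.

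The medians of the other lists were smaller. For comparison, 49.6% of all genes were above 0, and 65.7% after centring, with a median of 0.03. Factors of cytosolic translation (24 measured) had a median of 0.04 with 16 above 0, and 23 above 0 (median 0.07) after centring; without Dom/Dom replicate 2 the median was 0.01. The list was led by Nap1l1 (0.15), a histone chaperone whose message carries a pyrimidine tract, and Eef1e1 (0.12), a scaffold of tRNA synthetases. Genes of mitochondrial translation (27 measured) had a median of 0.03 with 19 above 0, and 23 above 0 (median 0.06) after centring. The largest differences were those of the tyrosyl-tRNA synthetase Yars2 (0.24; limma adjusted p = 0.826) and the membrane insertase Oxa1l (-0.12). Without Dom/Dom replicate 1 the median was 0.09 with 21 above 0, and without Dom/Dom replicate 4 it was -0.02 with 7 above 0. Subunits of the respiratory chain and ATP synthase (33 measured) had a median of -0.01 with 15 above 0, and 21 above 0 after centring, with Ndufa6 of complex I at -0.22 and Atp5g2 of ATP synthase at -0.11. In each of these lists 0 genes passed in the limma fit, without or with the block, where 0.481% and 1.5% of all genes did. Without it, each list held 0 genes with an unadjusted p under 0.05, where 6.11% of all genes had one. With it, 1 of 24, 2 of 27 and 2 of 33 had one, in the order above, where 13.9% of all genes did.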

How the data were processed

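The table deposited holds 1 log2 value for each probe set and array. Per the submitters' processing notes RMA and Partek made these values. Their versions are not given in the sources used here. As a rule RMA subtracts background, makes array distributions alike and shrinks differences of dim probe sets. Of 16381 probe sets, 7416 had a single symbol in the platform annotation, which gave 6855 genes, each by its brightest probe set; symbols and chromosomes came from RefSeq (GRCm38.p6), matching 6828. No filter on low values was applied. Of these genes 97.8% lie on chromosomes 1 and 10 to 16. Ribosomal genes named only by probe sets with several symbols (21) were not used. The array medians lay between 9.18 and 9.33, and 4 arrays a genotype limit the precision.

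The comparison of genotypes used limma 3.58.1 and R 4.3.3 (genotype alone, two-sided), with Benjamini-Hochberg adjustment over all genes and a threshold of 0.05. The steps were tested on simulated data. Same-numbered arrays correlated in their deviations from the genotype mean at 0.465, 0.577, 0.607 and 0.668, each over 0.1. The number was therefore treated as a pair, from the data and from no label. Some arrays of different numbers also lay over 0.1. Dom/Dom 1 with WT 2 gave 0.107, 2 with 1 gave 0.14, 3 with 4 gave 0.381 and 4 with 3 gave 0.21. That limit alone thus cannot tell the number from the split of replicates 1 and 2 against 3 and 4. Each Dom/Dom array correlated most with the WT array of its own number. Neighbours are the 10 single-gene probe sets on each side by identifier. Named genes are Sox10, members past the threshold, the 3 brightest, dimmest, highest and lowest differences of each subunit, paralogues, Rps19bp1, and per list the 2 largest differences. Members and lists were chosen with earlier results of these data known.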

Additional observations from a re-analysis of the deposited data

Results flagged for a closer look

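Within each genotype, a value lying far from those of the remaining 3 arrays was looked for in each member, in the class means and in the distance between them. Of 136 such sets of 4, 5 held one, where 6.8 are expected, since chance gives about 1 in 20. In WT replicate 2, Mrpl10 was low (11.88, with the other 3 WT arrays at 12.02 to 12.03) and Mrpl42 high (9.71, others 9.46 to 9.48). In WT replicate 1, Rpl23 (11.30, others 11.55 to 11.59) and Rpl32l (10.57, others 10.81 to 10.86) were low. In Dom/Dom replicate 1, Mrps7 was low (10.76, others 10.87 to 10.89).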

How the results depend on the processing

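The count of 0 members past the threshold held for the cytosolic class in each alternative fit, and for the mitochondrial class in each but that of replicates 3 and 4 alone, which gave 1 (Mrpl44). The number of all genes past it, 33, moved to 103 with the replicate block, 190 with array weights, 4 in replicates 1 and 2 alone and 352 in replicates 3 and 4 alone, and lay between 10 and 51 when each array was left out in turn. Each replicate number holds an array of each genotype, so the block cannot change a difference or a class median. The block changed no call of a member. The cytosolic median difference turned to 0.022 with centring on array medians and to 0.028 without WT replicate 3; leaving out each array in turn it lay between -0.049 and 0.028. The mitochondrial median lay between -0.068 (without Dom/Dom replicate 2) and 0.015 (without Dom/Dom replicate 1, with 17 of 27 above 0). The use of probe sets at the gene's own chromosome was chosen after seeing the data. Values without detection calls give no signal over background, which limits the dim members Rpl39l and Rpl10l, and copies of cytosolic genes limit what their probe sets measure.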

Other observations

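Besides the probe sets used, 87 probe sets paired with several symbols name a ribosomal protein gene. Their mean levels ran from 9.86 to 14.32 with a median of 13.41, above the median of 13.11 of the cytosolic genes analysed.

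Nol12, an assembly factor of the nucleolus named after its values were seen, was the single gene of the 46 assembly genes whose genotype groups did not overlap, a pattern found in 3.78% of all genes. It read 10.37, 10.44, 10.50 and 10.43 in Dom/Dom and 10.28, 10.15, 10.26 and 10.24 in WT, a difference of 0.20 (95% interval 0.04 to 0.36; limma adjusted p = 0.511, and 0.148 with the block). With the block, 11 of the 46 assembly genes (23.9%) had an unadjusted p under 0.05, where 13.9% of all genes did.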
